A study of Mus musculus with 2 samples.

Results

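The AP-1 family genes Fos, Fosb, Fosl1, Fosl2, Jun, Junb, Jund, Batf, Batf3 and Atf3 were examined in chromatin of the mouse urinary bladder. They are 10 of the 21938 protein-coding genes that the GENCODE M21 annotation places on chromosomes 1 to 19, X and Y. They were taken by gene symbol, as genes that encode factors whose binding motif is enriched in distal open chromatin of the bladder, and all 10 symbols were found. The data are DNase-seq, in which the nuclease DNase I cuts DNA that is accessible in the nucleus, from whole bladder tissue of 2 female B6CASTF1/J mice aged 36 days. B6CASTF1/J animals are first-generation hybrids of the strains C57BL/6J and CAST/EiJ. The animals, called replicates 1 and 2, form a single untreated group with no control or second condition, so the spread between them is the only replicate error and no test between groups was possible.

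AP-1 is a pair of basic leucine zipper proteins held together along their zippers. Jun, Junb and Jund can pair with themselves or with Fos, Fosb, Fosl1 and Fosl2, while Fos proteins need a Jun partner to bind DNA. The usual binding sites are TGAGTCA, the TPA response element or TRE, and TGACGTCA, the cyclic AMP response element or CRE. Atf3 pairs with Jun proteins and is induced by cell stress. Batf and Batf3 act mainly in lymphocytes and dendritic cells, where they bind with Jun proteins and interferon regulatory factors. Fos, Fosb, Jun, Junb and Atf3 are immediate-early genes: growth factors, stretch or injury switch them on within minutes through transcription factors that already sit at their promoters.

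Each animal had its own list of peaks, 117773 in replicate 1 and 102671 in replicate 2, each peak with a height in the authors' signal units. Each animal also had a list of footprints, 280105 and 247833, which are short stretches inside accessible DNA that are cut less than their surroundings. The sources used here state neither the read depth nor the scaling of the heights, so heights were compared within these lists only. The tissue label was checked against marker genes: a peak lay within 500 bp of an annotated start in both animals at 10 of 10 urothelial genes, 8 of 8 smooth muscle genes, 6 of 6 fibroblast genes, 5 of 6 endothelial genes and 2 of 3 glial genes (none at Sox10), and at 0 of 4 genes of other organs (Alb, Apoa2, Ins1 and Neurod1). In a bulk tissue, fewer cells of a type and less accessibility per cell cannot be told apart.

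The sequences below show the DNA of the members at which peaks and footprints were most informative. Capitals mark bases inside a footprint called in both animals, and small letters mark bases outside. The first set gives the 100 bases just upstream of a start, in the direction of transcription, for the 3 Jun genes, Atf3 and Fos. The sequence is the GRCm38 reference, that is C57BL/6J, and the CAST/EiJ copy of these animals can differ from it.
Fos (chr12:85473790-85473889, plus strand): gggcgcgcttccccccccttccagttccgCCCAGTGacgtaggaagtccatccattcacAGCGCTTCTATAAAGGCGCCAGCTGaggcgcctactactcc
Jun (chr4:95052223-95052322, minus strand): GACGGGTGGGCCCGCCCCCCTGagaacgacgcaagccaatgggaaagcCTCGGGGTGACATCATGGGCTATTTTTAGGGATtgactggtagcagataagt
Junb (chr8:84978719-84978818, minus strand): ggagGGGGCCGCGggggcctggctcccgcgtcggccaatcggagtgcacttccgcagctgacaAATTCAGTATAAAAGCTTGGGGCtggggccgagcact
Jund (chr8:70698849-70698948, plus strand): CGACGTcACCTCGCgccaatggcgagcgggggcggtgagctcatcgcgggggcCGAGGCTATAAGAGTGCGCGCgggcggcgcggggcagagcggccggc
Atf3 (chr1:191183341-191183440, minus strand): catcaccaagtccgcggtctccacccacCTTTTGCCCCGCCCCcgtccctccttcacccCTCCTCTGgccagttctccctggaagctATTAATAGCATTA

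In Fos and Junb a footprint of both animals covered a TATA box, searched as TATAAA on both strands. It began 33 bases before the Fos start and 30 bases before the Junb start. Of the 500-base stretches upstream of all 54361 starts of protein-coding transcripts, 21.4% held TATAAA, and these were 2 of the 5 copies upstream of the members that lay in a footprint in both animals. In Jun the footprinted stretch nearest the start covered TGACATCA, a variant of the CRE to which Jun and Atf2 dimers are known to bind, 45 bases before the start. This octamer stood in 3.36% of all upstream stretches and in no other member's. In Atf3 the longest covered stretch held a GC box (GGGCGG, here on the strand opposite to the gene), the site of Sp1, which stood in 46.0% of all upstream stretches. In Jund, a footprint covered most of a copy of TGACGT, the core hexamer of the CRE and part of every full CRE, 98 bases before the start. This hexamer stood in 10.4% of all upstream stretches, and upstream of a start in 7 of the 10 members. The first value counts single stretches and the second counts genes, which can have several stretches. Of the 10 copies of the hexamer upstream of the members, 4 lay in a footprint in both animals, all of them at Jund or Fosb. The full CRE of Jund, described below, was counted once on each strand among the 4.

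The second set shows sites of the CRE, the TRE and the CArG box, the A/T-rich site of serum response factor (SRF), with 20 bases on either side. They were chosen because SRF, CREB and AP-1 itself are the textbook regulators of these genes.
Fos, CArG box upstream of the start (chr12:85473561-85473610, plus strand): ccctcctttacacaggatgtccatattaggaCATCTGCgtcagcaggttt
Fos, CArG box downstream of the gene (chr12:85486094-85486143, plus strand): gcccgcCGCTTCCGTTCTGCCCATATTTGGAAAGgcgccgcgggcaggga
Fosb, CArG box upstream of the start (chr7:19310288-19310337, minus strand): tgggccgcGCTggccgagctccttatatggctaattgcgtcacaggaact
Junb, CArG box downstream of the coding gene start (chr8:84976604-84976653, minus strand): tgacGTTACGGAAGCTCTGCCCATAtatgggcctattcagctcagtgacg
Junb, CArG box upstream of the start (chr8:84980139-84980188, minus strand): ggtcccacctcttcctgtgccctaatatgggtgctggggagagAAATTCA
Jund, CRE upstream of the start (chr8:70698715-70698762, plus strand): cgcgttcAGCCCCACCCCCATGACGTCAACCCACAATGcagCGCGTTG
Fosb, TRE upstream of the gene (chr7:19327328-19327374, minus strand): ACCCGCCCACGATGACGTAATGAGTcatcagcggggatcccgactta

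The CArG box was found in the 500 bases upstream of a start in 2 of the 10 members, Fos (CCATATTAGG, 309 bases before the start) and Fosb (CCTTATATGG, 266 bases before the outermost start). Of all upstream stretches, 2.47% held one. That share counts single stretches and not genes, and a gene with several starts has several stretches. Both copies lay inside a peak in both animals, and neither lay in a footprint in either animal. At Fos, a footprint of both animals began just beyond the box. By contrast, the CArG box CCATATTTGG in the peak downstream of Fos lay wholly in a footprint in both animals, and that in the peak at the inner start of Junb lay in part in one. The Junb copy further upstream was in a peak but not in a footprint, and so were 2 copies in the peak at AC126029.2 in the window of Fosl1. Among distal peaks of the whole genome, defined as peaks over 1 kb from every annotated start, 0.688% in replicate 1 and 0.720% in replicate 2 held a CArG box within 75 bp of their midpoint. The full CRE was present upstream of Jund alone among the members (2.29% of all upstream stretches), 214 bases before the start, and was in a footprint in both animals. The upstream stretches differed in their number of CpG dinucleotides, the mark of CpG island promoters, from 54 at Fosl2 (percentile 94.5 of all stretches) and 46 at Batf3 (percentile 90.7) to 11 at Batf and 9 at the outermost Fosl1 start, where the median of all was 14. No TRE stood in the 14 upstream stretches of the members, some of which overlap, and 7.25% of all stretches held one. With so few stretches, the absence cannot be told from that share. A match is a description of the letters, and which protein left a footprint was not measured.

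All 10 members had a peak within 500 bp of at least 1 annotated start in both animals, against 65.2% of all protein-coding genes. Of their 27 distinct annotated starts, 22 (81.5%) had such a peak in both animals, against 52.2% of the starts of all protein-coding genes. The other 5 starts had none in either animal. The members had between 1 start (Jun and Jund) and 5 starts (Batf3), and the median protein-coding gene had 3. The heights of the start peaks spread widely within the family: the 3 Jun genes and Atf3 were high, the Fos genes ranged from high to near the middle of all genes, and both Batf genes were low.

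Jun, the founding AP-1 gene (chr4:95049034-95052222), had the highest start peak of the family, 16.9 in replicate 1 and 9.32 in replicate 2 (13.1 ± 5.40, SD, n = 2). This mean stood at percentile 98.7 of all protein-coding genes, whose median was 1.85 with genes lacking a peak set at 0. Junb (chr8:84974484-84978718), which can oppose Jun in growth control, reached 10.4 and 6.37 (8.39 ± 2.86, percentile 88.8). Jund (chr8:70698949-70700616), the Jun gene that most cells express steadily, reached 14.5 and 9.08 (11.8 ± 3.85, percentile 97.4). The ranges of Jun and Jund over the animals overlapped, and so did those of Jund and Junb. In each animal taken alone, the order was Jun, Jund, Junb.

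Among the Fos genes, Fosl2 (chr5:32135801-32157842), which encodes Fra-2, had the highest start peak, 12.1 in replicate 1 and 6.08 in replicate 2 (9.08 ± 4.24, SD, n = 2, percentile 91.3). Fosb (chr7:19302696-19310051) followed with 7.42 and 5.18 (6.30 ± 1.58, percentile 78.9). Fos itself (chr12:85473890-85477273) had 5.12 and 4.54 (4.83 ± 0.416, percentile 70.3), close to the median of 4.37 among protein-coding genes with a peak in both animals. Fosl1 (chr19:5447547-5455946), which encodes Fra-1, was the lowest of the Fos genes with 2.73 and 2.16 (2.44 ± 0.406, percentile 54.3). Within each animal the order was Fosl2, Fosb, Fos, Fosl1. The ranges of Fosl2 and Fosb overlapped, and those of Fosb, Fos and Fosl1 did not.

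Atf3 (chr1:191170296-191218039), the stress-induced member, was the second highest of the family by its mean, with 16.3 in replicate 1 and 8.13 in replicate 2 (12.2 ± 5.79, SD, n = 2, percentile 98.0). Batf3 (chr1:191097847-191108945) had 0.853 and 0.790 (0.821 ± 0.0443, percentile 40.4). Batf (chr12:85686669-85709087) had 0.553 and 0.730 (0.642 ± 0.126, percentile 38.3), the lowest of the 10. Both Batf genes lay below every value of the other 8 members and below the median of all protein-coding genes. In the smaller list of peaks, Batf had its start peak in replicate 2 only, which lowered its mean to 0.365, and in neither animal was that peak among the higher 50% of peaks. Their known home cells also left few peaks: of 12 leukocyte markers, 1 (Adgre1, a macrophage receptor, 0.561 and 0.459) had a start peak in both animals, Lyz2 had one in replicate 2 alone, and the other 10 (Ptprc, Cd3e, Cd4, Cd8a, Cd79a, Itgax, Itgam, Csf1r, Xcr1 and Clec9a) had none in either. The summed start height of the 12 was 0.561 and 1.08. Xcr1 and Clec9a mark the dendritic cells that depend on Batf3, and whether the share of leukocytes in the tissue bears on the low Batf peaks was not tested.

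**Figure D1:**
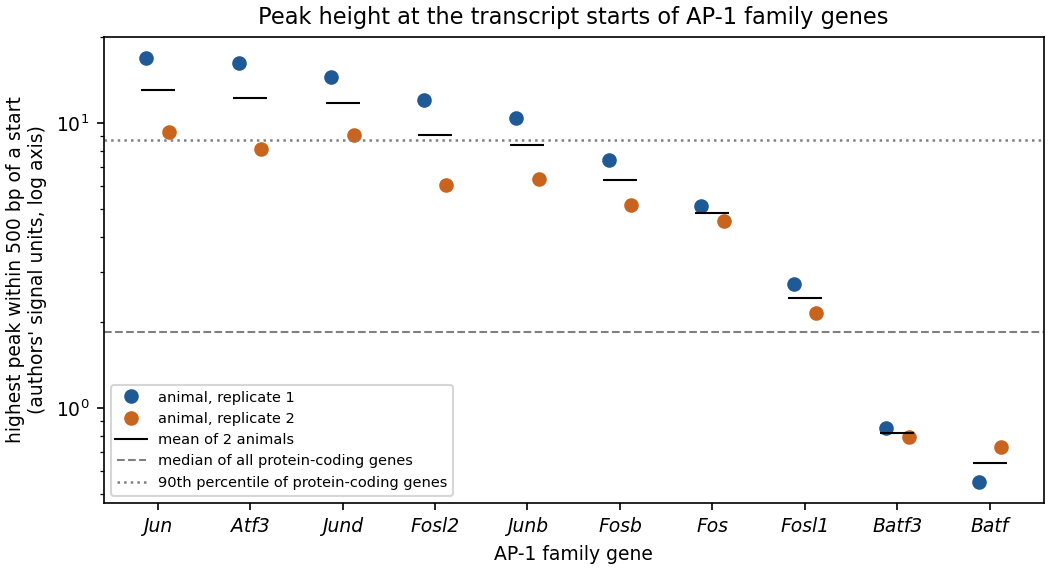
Height of the highest peak within 500 bp of any annotated start of each AP-1 family gene (y axis, authors' signal units, log axis), with 1 point per animal and the mean of the 2 animals as a bar. Jun, Atf3 and Jund are highest with means of 13.1, 12.2 and 11.8, Batf3 and Batf are lowest with 0.821 and 0.642, and 9 of the 10 genes are lower in replicate 2.

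The annotated starts of a gene differed in how open they were. Atf3 had its peaks at the 2 inner starts, 191183340 and 191183108, whereas its outermost start at 191218039 had no peak and no base at a false discovery rate of up to 0.05 in either animal. At Junb, the inner start at 84976542, which belongs to a non-coding transcript, had 8.90 in replicate 1 and 5.84 in replicate 2, close to the values at the coding start. At Fos, the inner starts were lower than the outermost one: those at 85474691 and 85474911 shared a peak of 1.63 and 1.73 that held no footprint. At Fosb the start peak covered no annotated start, since it spanned 19310281 to 19310480 in replicate 1 and the outermost start is at 19310051. The further starts with no peak were Fosb at 19309600, Fosl2 at 32146521, Batf at 85689292 and Batf3 at 191100477. The Fosb start among these had 160 bases listed at a false discovery rate of up to 0.05 within 500 bp in replicate 1 and 245 in replicate 2, although no peak was called there.

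Beyond the starts, every gene body was searched, with 50 kb added to each end, for peaks. Because the windows of Batf3 and Atf3 overlap, the 10 windows form 9 regions that cover 1093 kb. They held 216 peaks in replicate 1 and 206 in replicate 2. Of the 216, 175 (81.0%) overlapped a peak of replicate 2, against 71.5% of all peaks of replicate 1. A footprint of the same animal lay in 93.5% and 85.9% of them, against 81% and 74.9% of all peaks. In replicate 1, 79 of the 216 peaks lay within 500 bp of a start of some gene, 72 between genes, 40 in introns and 25 in exons, and the medians of their heights were 3.21, 1.89, 1.16 and 1.62. Each of these medians was above the 0.845 of all peaks of replicate 1. Whether the greater height bears on the shares of shared and footprinted peaks was not tested.

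**Figure D2:**
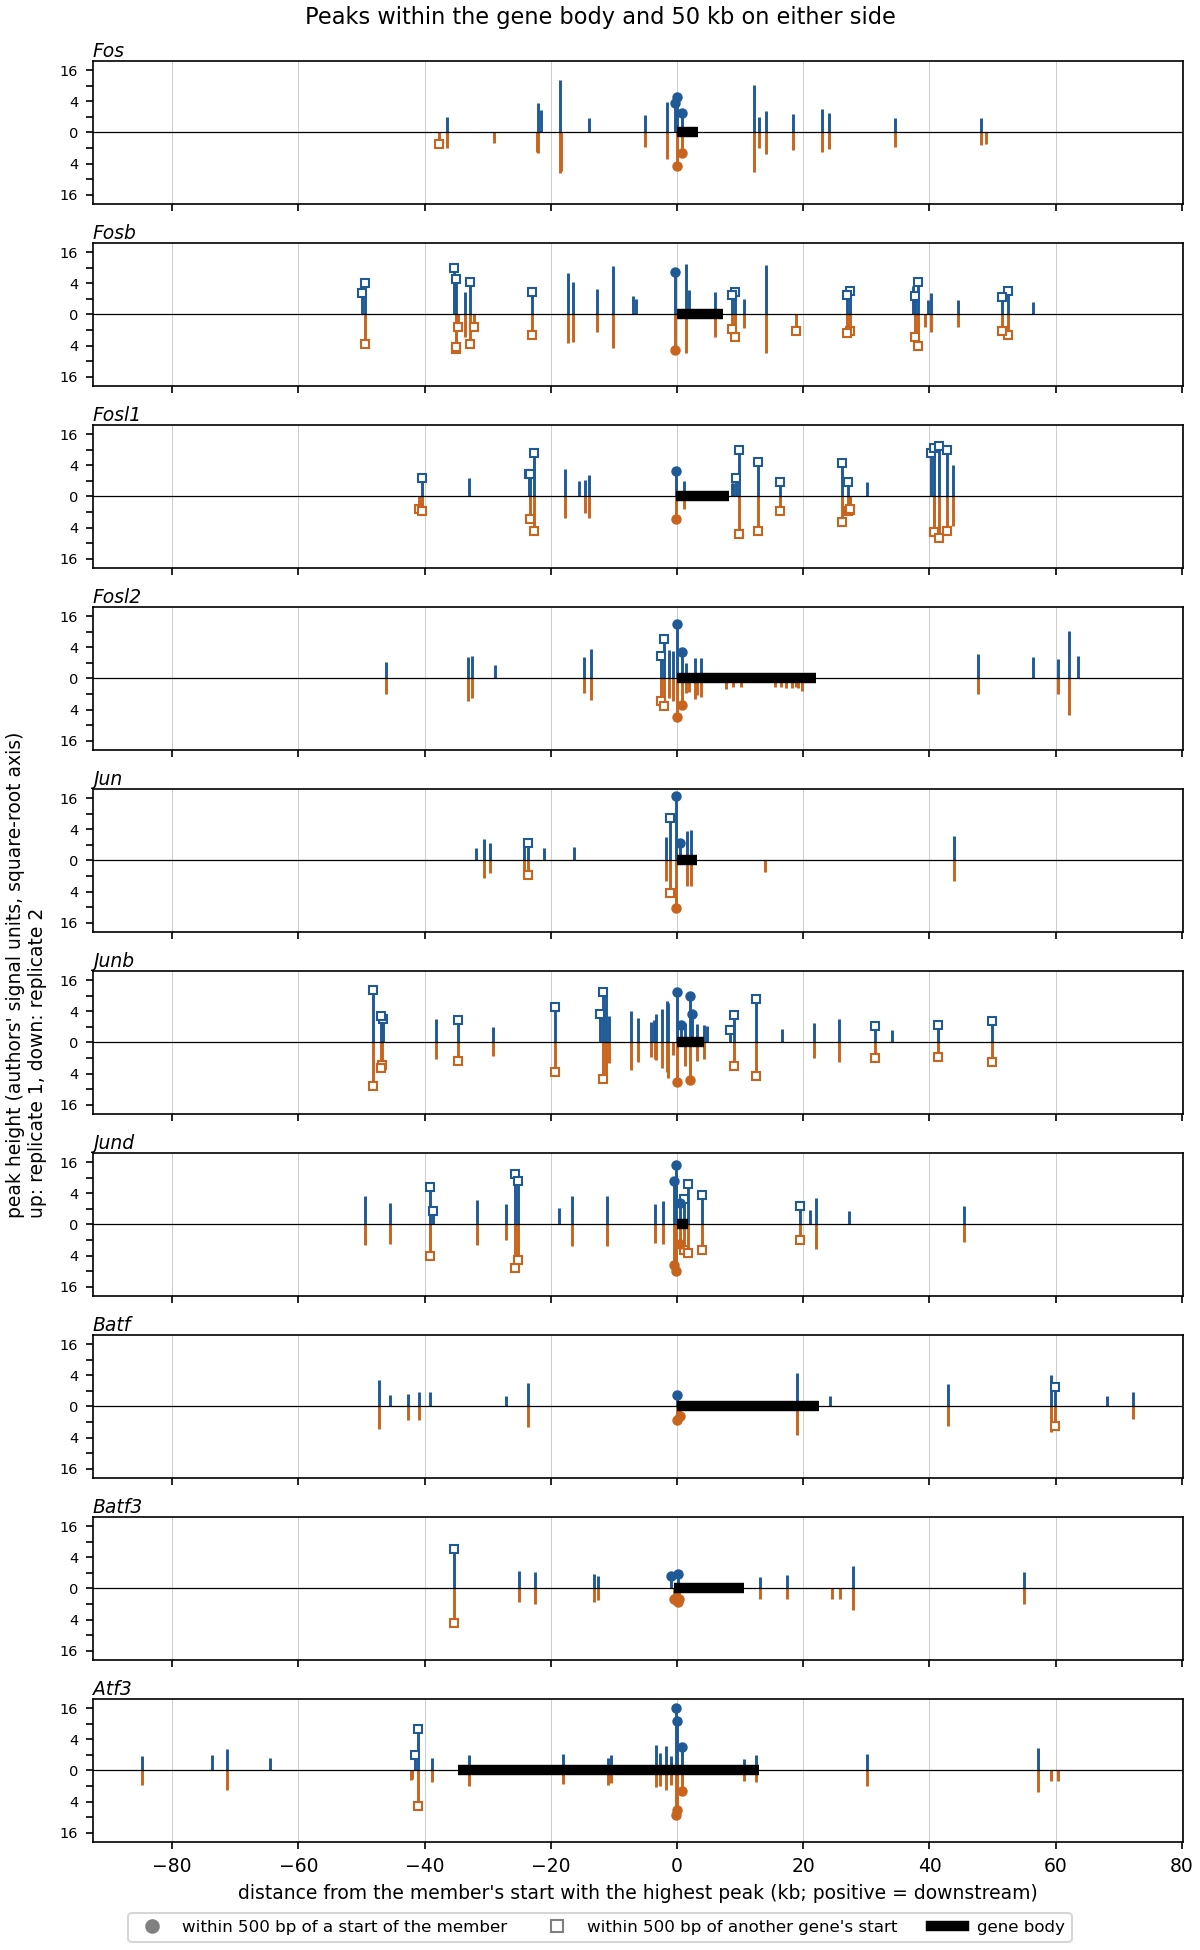
Peaks in the body of each AP-1 family gene and within 50 kb of its ends, by distance from the start of a protein-coding transcript with the highest peak (x axis, kb), with the height (y axis, authors' signal units, square-root axis) drawn up for replicate 1 and down for replicate 2. Fos, Fosb, Fosl2, Junb and Batf have tall peaks without a marker away from any start. Many tall peaks around Fosl1, Junb and Jund, and some around Fosb, carry the open square of another gene's start.

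Fos stands alone in its window, with no start of another protein-coding gene. It had 18 peaks in replicate 1 and 20 in replicate 2, 14 and 16 of them distal. Its tallest peaks were not at its start: the peak 18.5 kb upstream (chr12:85455161-85455580) reached 11.3 and 6.80, and the peak 12.2 kb downstream of the start (chr12:85486001-85486240) reached 9.47 and 6.33. Each exceeded the start peak of the same animal, which was 5.12 and 4.54. The 2 peaks stood at or above percentile 99.8 of the heights of distal peaks in each animal. The downstream one is that with the CArG box covered by a footprint. A further peak 1.64 kb upstream had 3.88 and 2.85.

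Fosb had tall peaks on both sides of its start. The peak 0.899 kb from the nearest start, within an exon of Fosb (chr7:19308581-19308820), reached 10.3 and 6.24 and so exceeded the start peak in both animals. A peak 13.6 kb downstream, in an exon of Rtn2, reached 9.98 and 6.19. Upstream, within the long non-coding gene D830036C21Rik, a peak 10.2 kb away reached 9.52 and 4.62, and a peak 17.3 kb away reached 7.22 and 3.38. The latter (chr7:19327241-19327440) holds the TRE shown above, with most of its letters in a footprint, and next to it the hexamer TGACGT, all of it in a footprint.

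Fosl2 had its highest peak at its start, and its highest peak away from any start lay 62.1 kb downstream of it (chr5:32197821-32198000) with 9.32 in replicate 1 and 5.47 in replicate 2. A footprint in both animals there covered CAGNGGGC on the strand opposite to the gene, the core of the site of the insulator protein CTCF, which stood within 75 bp of the midpoint of 7.84% and 8.26% of all distal peaks. Its sequence, with 20 bases on either side of the core (chr5:32197891-32197938, plus strand), is shown for the position of the core within the footprint.
Fosl2, CTCF core downstream of the gene: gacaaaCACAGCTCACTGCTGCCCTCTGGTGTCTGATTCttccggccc

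The Fosl2 window differed most between the animals in the number of peaks, with 20 peaks in replicate 1 and 29 in replicate 2. Replicate 2 had 13 peaks there that overlapped none of replicate 1, and all 13 lay in the body of Fosl2. They were low, with a median of 0.408 and a highest value of 1.10. Replicate 1 had 4 peaks of its own in the window, with a highest value of 2.00.

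Jun had few peaks around it, 14 in replicate 1 and 11 in replicate 2, with no start of another protein-coding gene. Its second highest peak, 1.11 kb upstream (chr4:95053181-95053480), lay at a start of the antisense gene Junos and reached 7.48 and 4.28. Within the single exon of Jun, peaks 1.51 kb and 2.14 kb from the start had 3.48 and 2.62, and 3.78 and 2.60. Junb had 37 and 31 peaks, the most of the family, among starts of 9 other protein-coding genes. Its upstream flank held adjoining peaks free of any start, which overlapped each other in replicate 1. By their midpoints in replicate 1 they lay 1.43 kb away with 6.53 and 5.21 and 1.62 kb away with 7.24 and 3.51. The former was 100 bp wide in replicate 1, and its partner in replicate 2 was 460 bp wide. Jund had a second peak at its start, 0.478 kb upstream, with 7.82 and 6.94.

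At Batf, the highest peak of the window lay inside the gene, in an intron 19.02 kb from the start (chr12:85705581-85705800), with 4.64 in replicate 1 and 3.37 in replicate 2. It exceeded the start peak of Batf, 0.553 and 0.730, in both animals. Around Batf3, the highest peak was that at the starts of Nsl1 and Tatdn3, with 6.60 and 4.99, and the next highest of the peaks nearest to Batf3 had 2.04 and 1.83. Around Fosl1, the highest peak was at a start of AC126029.2, with 10.3 and 7.07, and around Junb it was at a start of Trir, with 11.2 and 7.96. In the windows of Fosl2, Jun, Jund and Atf3 the highest peak belonged to the member's own start.

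The number of peaks per 10 kb of gene body and flanks was above the median of all protein-coding genes, 0.721, for all 10 members. The member median was 1.92. Junb was densest with 3.55 in replicate 1 and 2.97 in replicate 2 (3.26 ± 0.407, SD, n = 2, percentile 99.8 of all protein-coding genes), followed by Fosb with 2.84 ± 0.198 and percentile 99.4. Batf was the sparsest by its mean, with 1.23 and 0.899 (1.06 ± 0.231, percentile 70.4). The 4 densest windows, those of Junb, Fosb, Jund and Fosl1, held starts of 9, 6, 5 and 11 other protein-coding genes. The windows of Fosl2, Fos and Jun held 0, and those of Atf3, Batf and Batf3, with 1, 1 and 2, were sparser than those of Fosl2 and Fos. Without peaks within 1 kb of a start of another gene, annotated non-coding genes included, the member median fell to 1.26 and the median of all protein-coding genes to 0.433, and all 10 members still exceeded the latter. Fosl1 then dropped from 2.12 to 0.5996 and Jun from 1.21 to 0.581, while Fos changed from 1.84 to 1.69. At Jun, the peaks left out included the one at its own start, because starts of the antisense gene Junos lie within 1 kb of it. Only its 7 distal peaks in replicate 1 and 5 in replicate 2 remained. At Jund, a peak within 500 bp of its start was likewise left out, because it also lay within 500 bp of a start of Gm11175. Junb with 1.92 and Fosl2 with 1.84 were then the densest.

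**Figure D3:**
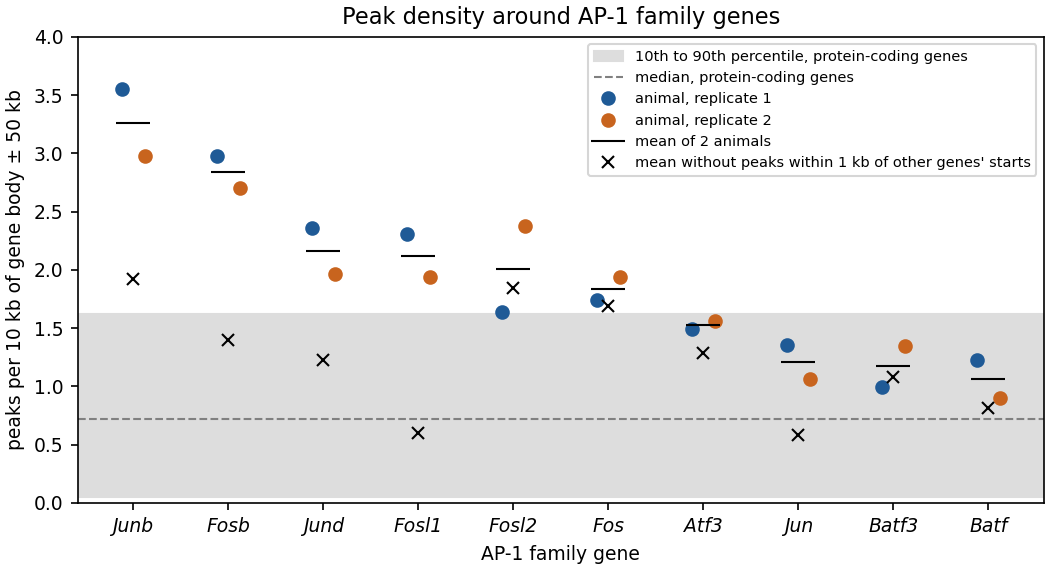
Peaks per 10 kb of gene body with 50 kb flanks (y axis) for each AP-1 family gene, with 1 point per animal, the mean as a bar and, as a cross, the mean without peaks near starts of other genes. The grey band and dashed line, the 10th to 90th percentile and the median of 0.721 over all protein-coding genes, refer to the points and bars and not to the crosses, for which the median is 0.433.

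Distal peaks with the AP-1 site were counted in the windows and across the genome. Of the distal peaks in the windows, 14 of 117 in replicate 1 (11.97%) and 9 of 108 in replicate 2 (8.33%) held TGAGTCA within 75 bp of the midpoint, against 9.73% and 7.45% of all distal peaks. The whole peaks of the windows held 31 copies of the site, of which 16 were in a peak of both animals. They were most numerous around Fosb with 8, followed by Atf3 and Fosl1 with 5 each, and none lay in a peak nearest to Fos or Batf3. One TRE lay in the start peak of Fosl2, 56 bases inside the transcript, and was in no footprint.

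Few of these copies lay in a footprint, and their shares were near those of all copies in peaks. The centre of 1 of the 31 copies lay in a footprint in both animals, that 17.3 kb upstream of Fosb, 3 lay in one in a single animal, and 27 in neither. In replicate 1, 3 of 22 copies in peaks (13.6%) were in a footprint, against 12.5% of all copies in peaks of that animal. In replicate 2, 2 of 25 (8%) were, against 10.8% of all copies. Bases in footprints made up 14.5% and 11.7% of all bases in peaks. Across the genome, the share of copies in footprints was below these values in each animal. So were the shares around the members, but 22 and 25 copies are too few to tell them from these values. The peak with the covered copy was tall, 7.22 and 3.38, but the start peak of Fosl2, whose copy was uncovered, was taller with 12.1 and 6.08.

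Heights were lower in replicate 2 almost throughout, as they were genome-wide. Of 167 peaks in the windows that were paired between the animals, 69 of 80 within 1 kb of a start and 81 of 87 further away were lower in replicate 2. Their median log2 ratio of replicate 2 to replicate 1 was -0.44, against -0.37 over all 80840 paired peaks, a difference of -0.072 where the SD over all pairs was 0.42. At the start peaks, the log2 ratio ran from -1.005 at Atf3 and -0.99 at Fosl2 to 0.40 at Batf, and its median over protein-coding genes with a start peak in both animals was -0.55. Fos with -0.18, Batf3 with -0.11 and Batf were the members with the smallest drop or a rise. The 2 libraries carry no further label by which the animals differ, and how the heights were scaled is not stated in the labels.

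**Figure D4:**
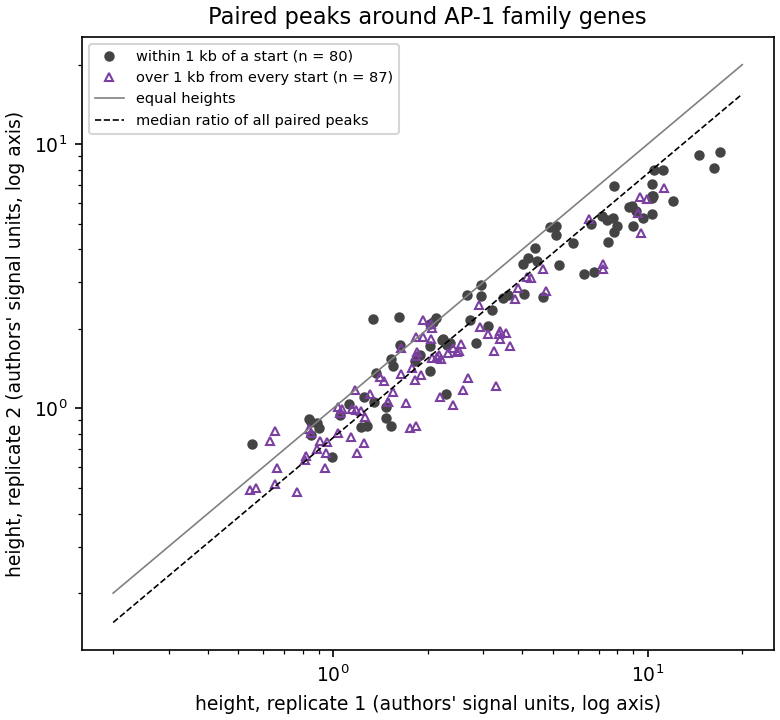
Heights of the 167 paired peaks around the AP-1 family genes in replicate 1 (x axis) and replicate 2 (y axis), both in the authors' signal units on log axes, for peaks within 1 kb of a start (filled) and further away (open). Most points lie below the line of equal heights and along the dashed line of the median ratio of all paired peaks, at a log2 ratio of -0.37.

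The genes around AP-1 in its pathway were open at their starts with few exceptions. Of 16 kinase genes of the MAP kinase pathways, which carry growth factor and stress signals to Fos and Jun proteins, 15 had a start peak in both animals. Map2k1, an activating kinase of the ERK branch, was highest with 21.8 in replicate 1 and 10.01 in replicate 2, and Mapk10, the JNK form typical of neurons, was lowest with 0.632 and 0.552. Mapk11 had a peak in replicate 1 only. All 10 genes of the factors that switch on Fos and Jun, SRF, its ternary complex partners and CREB among them, were open, from Stat3 with 15.7 and 9.65 to Elk3 with 1.16 and 1.32. So were all 19 genes counted of other basic leucine zipper factors, from Atf7 with 18.9 and 11.0 to Nfe2 with 4.07 and 2.47. These counts stand beside the 65.2% of all protein-coding genes that were open by the same rule.

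Genes commonly cited as AP-1 targets were open less completely, 11 of 16 in both animals. Hmox1, which encodes heme oxygenase, was the highest with 10.3 in replicate 1 and 5.24 in replicate 2. Sprr1a, a gene of the cornified envelope, was the lowest of the open ones by its mean, with 0.924 and 0.425. The 5 with no start peak in either animal were the matrix metalloproteinase genes Mmp3, Mmp9, Mmp10 and Mmp13 and the neutrophil gene S100a9. All lists were assembled from textbook knowledge, and the share of 11 in 16 (68.8%) was near the 65.2% of all genes.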

How the data were processed

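Peak heights are a signal that the authors computed and deposited with each animal's peaks on mm10, per the labels. Their scaling, the aligner and the peak caller: not given in the sources used here. The authors also deposited p-value type columns: the false discovery rate per base up to 0.05, and a threshold of 0.01 that all footprints share, which gives them no order. Per the labels, each animal has peak and footprint calls of its own. Both libraries share a donor record in the labels and come from separate biosamples.

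Of the 2 peak lists per animal, the one with more peaks was used. Genes, every annotated start and sequence came from GENCODE M21 and GRCm38. A start was open where a peak lay within 500 bp. Peaks overlapped when they shared 1 bp, and pairs were mutual best overlaps. In the lists, 1079 and 2406 peaks overlap another peak of the same list. Motifs were exact matches on both strands. All values were computed with Python 3.11.15, numpy 2.4.6, pandas 2.3.3, pysam 0.24.0, samtools 1.23.1 and matplotlib 3.10.9, and the counting functions were tested on simulated data. No p-value was computed. The members and gene lists were chosen with earlier results of these data known. Every member was named, as were the highest, the lowest and the closed genes of each pathway list, and other genes where the highest peak of a window lay at their start. Some further neighbouring genes were named to locate peaks after their values were seen, as were the marker Lyz2 and the kinase Mapk11. A further 3 genes of the marker lists were left out and are not reported here. The symbol Ddit3 matched 2 genes and was not counted.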

Additional observations from a re-analysis of the deposited data

How the results depend on the processing

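All 10 members kept an open start with windows of 250 bp and 1 kb, with protein-coding transcripts only and in each animal alone. It was 9 where the peak had to touch the start base, which left out Fosb, and with the smaller peak list or the higher 50% of peaks, both of which left out Batf. The share of open starts, 81.5%, became 44.4% where the peak had to touch the start base, 74.1% within 250 bp, 85.2% within 1 kb, 70.4% with the smaller list, 77.8% with the higher 50% of peaks, 85.7% over the 14 starts of protein-coding transcripts, and 78.3% with starts within 100 bp counted once, an alternative chosen after seeing the data. The matching shares over all protein-coding genes and their starts are not given for these settings. The 65.2% and 52.2% above hold for the main setting only, so the altered values cannot be set against them. Shared peaks numbered 75 with 10 kb flanks and 279 with 100 kb flanks, and 173 with overlapping peaks of a list merged, also chosen after seeing the data. Where the overlap had to span 50% of both peaks, 142 of the 216 peaks were shared, against 175 with 1 bp. The median density of 1.92 became 2.61 with 10 kb flanks, 1.60 with 100 kb flanks, 1.37 with the smaller list, 1.53 with the higher 50% of peaks and 1.26 without peaks at other genes' starts, and leaving out 1 animal gave 1.69 to 1.94. In each of these settings all 10 members exceeded the median of all protein-coding genes, except that with 10 kb flanks Batf did not. The height difference of -0.072 between the animals became -0.042 with 50% overlap. Motif and footprint shares moved by less than the spread between the animals, but with the smaller list the mean share of distal peaks with TGAGTCA, 8.32% in the windows against 8.73% of all, was the lower one, where it had been 10.15% against 8.59%. No paired analysis was possible because there is 1 group and no test. Read depth is not given, so the limit it sets on low peaks, such as that of Batf, is unknown.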
